A study of Mus musculus with 40 samples.

Results

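The livers of male mice given 5 mg/kg bw/d GenX were compared with those of male mice given 0 mg/kg bw/d (controls), gene by gene. GenX is the trade name for the ammonium salt of hexafluoropropylene oxide dimer acid, a short-chain perfluoroalkyl ether acid used to make fluoropolymers. The comparison held 10 of the 40 mice of the series, chosen by their animal numbers in the deposited table: 401 to 405 in the 5 mg/kg group and 101 to 105 in the control group. The series as a whole has 8 groups of 5 wildtype Crl:CD1(ICR) mice, each sex given 5, 0.5, 0.1 or 0 mg/kg bw/d by gavage over 90 days, with no age given in the sources used here. All mice, controls included, were gavaged daily and housed alone. RNA came from formalin-fixed, paraffin-embedded liver sections and was measured with TempO-Seq, in which a pair of detector oligos is ligated on its target transcript, amplified and counted as reads. Each value below belongs to the most counted probe of a gene symbol, as reads relative to the TMM-scaled library total (CPM). Females at the same dose and their controls were used to test where the male response differed and are given beside some values, as are the 0.5 mg/kg bw/d males, which share their controls with the 5 mg/kg males.

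Perfluoroalkyl acids can act as ligands of PPARα, a nuclear receptor that pairs with RXR and binds direct repeats of a hexamer separated by a single base. In rodent liver it drives genes of peroxisomal, mitochondrial and microsomal fatty acid oxidation, of fatty acid uptake and binding, and of lipid droplets. A rodent given a PPARα ligand for weeks typically has an enlarged liver with more peroxisomes. Adult male mouse liver also carries a set of male-biased genes, among them the major urinary proteins, that is kept up by pulsed growth hormone through STAT5B.

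The letters AGGNCANAGGNCA, a direct repeat of that kind, were looked up on both strands of the RefSeq promoter table (GRCm38.p6, 250 bases before to 50 after each start). They occurred in 125 of 32851 promoters (0.381%) and in 33 of the 9573 tested genes with a promoter in the table (0.345%). Of the genes called below, 2 of 542 increased genes and 4 of 352 decreased genes with a promoter held them, and none of the 16 that had one among the 24 genes with the most extreme fold changes described below. All 6 called genes with a match are printed, in the direction of the gene, 81 bases each, with the matched letters in capitals:
Fabp1 (chr6:71199778-71199858, plus strand, match on the opposite strand 67 to 55 bases before the start): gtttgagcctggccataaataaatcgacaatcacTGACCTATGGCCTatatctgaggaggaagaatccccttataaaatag
Srp54a (chr12:55080344-55080424, plus strand, 118 to 106 bases before the start): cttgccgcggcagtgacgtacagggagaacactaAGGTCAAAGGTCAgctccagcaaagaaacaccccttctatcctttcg
F7 (chr8:13025966-13026046, plus strand, match on the opposite strand 34 to 22 bases before the start): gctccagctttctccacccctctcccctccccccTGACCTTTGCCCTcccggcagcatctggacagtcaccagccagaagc
Entpd8 (chr2:25080199-25080279, plus strand, 90 to 78 bases before the start): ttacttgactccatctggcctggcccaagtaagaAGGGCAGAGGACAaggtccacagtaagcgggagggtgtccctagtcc
Ceacam1 (chr7:25477753-25477833, minus strand, 174 to 162 bases before the start): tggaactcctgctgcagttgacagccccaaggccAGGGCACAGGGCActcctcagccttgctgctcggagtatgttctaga
Cyp2d10 (chr15:82407205-82407285, minus strand, 57 to 45 bases before the start): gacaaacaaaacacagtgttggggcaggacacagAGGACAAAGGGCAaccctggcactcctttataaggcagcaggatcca

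Fabp1, the liver fatty acid binding protein, was counted at 5197, 4766, 4958, 5039.5 and 4589 CPM in the 5 controls and at 18227, 14530.0, 17697, 17808 and 16222 CPM in the 5 treated mice. The groups were far apart, and the log2 fold change was 1.78 ± 0.15 (SE, adjusted p = 3.04e-13). Srp54a, a subunit of the signal recognition particle with near-identical copies in the genome, was higher by 1.07 ± 0.31 log2 (SE, adjusted p = 0.0195). The other 4 genes were lower: F7, coagulation factor VII (log2 -1.84 ± 0.24), Entpd8, an ectonucleotidase (log2 -1.16 ± 0.33), Ceacam1, a cell adhesion protein (log2 -1.05 ± 0.18), and Cyp2d10, a cytochrome P450 (log2 -0.57 ± 0.15). A match of letters is a description of these windows and marks no binding site.

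The 10 libraries held 11652950 to 15435345 reads. A captured molecule was seen as a fixed multiple of reads, the first peak of a library's count histogram: 35.8 to 41 reads per molecule in controls and 20.8 to 28.4 in treated mice. Controls thereby held an estimated 287727 to 369710 molecules and treated mice 483549 to 655905, without overlap, and probes with any read numbered 12085 to 12668 in controls and 14027 to 14883 in treated mice. A gene at 0 reads in controls could thus be present at up to 3 molecules per library, 9.41 CPM on average, and folds against a group at 0 are lower bounds against that level; intervals on molecule counts cover counting error only. The part of this depth difference in the results for low genes was not tested.

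At an adjusted p below 10% (edgeR quasi-likelihood F-test, Benjamini-Hochberg), 1160 of 12412 genes differed between the groups (9.35%): 694 were increased (5.59%) and 466 decreased (3.75%). The shares of 5.59% and 3.75% are the background for all counts of list members below. They are a reference and no test of a list. Members and lists were chosen with earlier results of these data known, and the shares cover all tested genes, low-counted ones included. With the shallow library of mouse 355 put back into the fit, a female given 0.5 mg/kg bw/d, 403 were increased and 249 decreased. The 5 treated mice lay wholly above or below the 5 controls in 1154 genes (9.30%), called or not, and in 836 of the 1160 called genes. The median log2 fold change over all tested genes was 0.11 in males and -0.01 in females. Of the 1220 genes at 0 in every control, 95 were called. For the 12 genes at each extreme, given next, 780 called genes qualified by having non-overlapping groups and a mean of at least 10 CPM. Changes are log2 fold changes of treated against control males, with their SE after the ± sign, and means are given with their SD (n = 5).

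**Figure D1:**
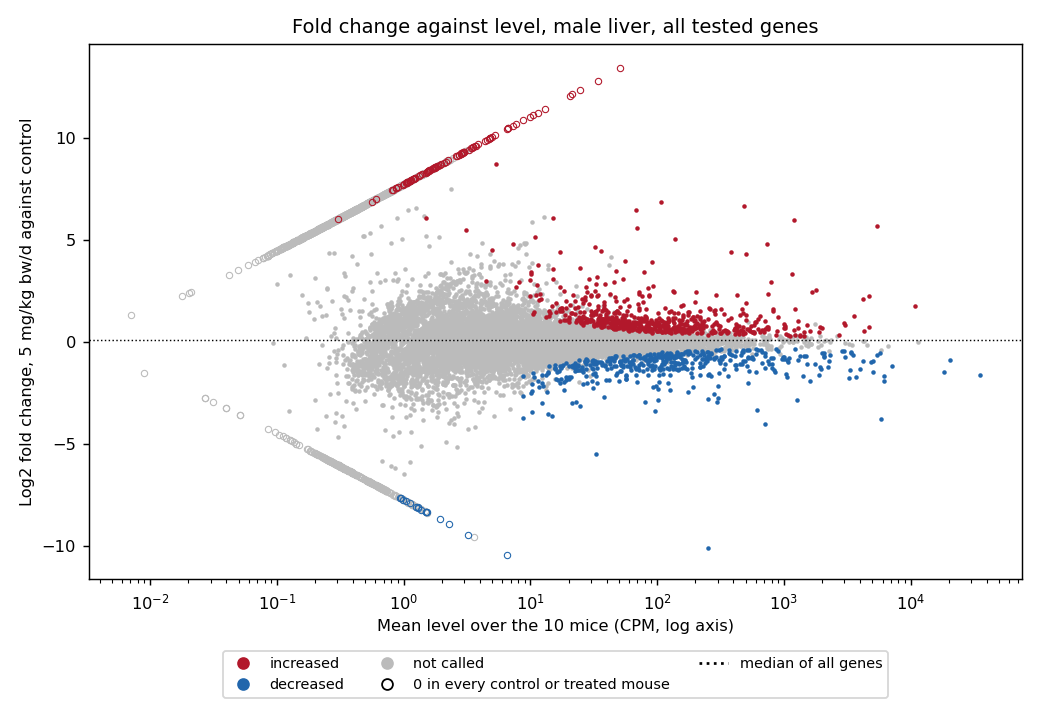
Log2 fold change (5 mg/kg bw/d against control males) of each of the 12412 tested genes against its mean level over the 10 mice, on a log axis. The 694 increased genes are red, the 466 decreased genes blue, and genes at 0 in every control or in every treated mouse, whose fold change has no measured size, are open circles along the diagonal lines.

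Of the 12 genes with the highest fold change, 7 had no read in any control. Their place in this order rests on fitted fold changes without a measured size, and the lower bounds given for them are below the fold change of genes with reads in controls such as Ehhadh, described further on. Fabp3, a fatty acid binding protein best known from heart, was at 0 in controls and at 132, 112, 162, 86.0 and 22.5 CPM in the treated mice. This is at least 10.9-fold higher (adjusted p = 8.31e-08), with mouse 405 well below the other 4. Ly6d, a GPI-anchored surface protein, was at 62.6, 109.5, 66.5, 40.9 and 59.5 CPM in the treated mice, at least 7.20-fold higher (adjusted p = 1.05e-04). Kif20a, a mitotic kinesin, was at 26.2, 29.04, 59.2, 75.3 and 55.9 CPM and at least 5.22-fold higher (adjusted p = 5.50e-06). Cox6b2, a cytochrome c oxidase subunit best known from testis, was at 46.8, 35.2, 58.8, 41.9 and 30.7 CPM and at least 4.53-fold higher (adjusted p = 3.85e-05). Every treated mouse had reads of these genes, and the lowest treated mouse of each was above every control. With controls at 0, both follow from the condition of non-overlapping groups by which the genes were chosen.

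Pdk4, the kinase that shuts off pyruvate dehydrogenase, was at 0 in controls and at 44.5, 82.5, 32.6, 8.66 and 35.7 CPM in treated mice (at least 4.33-fold higher, adjusted p = 1.11e-04). Fbp2, the muscle form of fructose bisphosphatase, was at 31.3, 55.9, 23.9, 13.2 and 6.69 CPM (at least 2.78-fold higher, adjusted p = 0.00298). Hao2, a peroxisomal hydroxyacid oxidase and a female-biased gene, was at 2.43, 28.7, 20.8, 28.2 and 33.9 CPM (at least 2.42-fold higher, adjusted p = 2.14e-06). Mouse 404 was the lowest for Pdk4 and mouse 401 the lowest for Hao2, both close to or under the level that 3 molecules give.

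The other 5 had reads in some controls. Cyp4a10, a microsomal fatty acid ω-hydroxylase, was at 31.7, 86.7, 17.7, 35.9 and 12.5 CPM in controls and at 2167, 2684, 2778, 1963 and 2139 CPM in treated mice, a 63.6-fold difference (log2 5.99 ± 0.42, adjusted p = 1.04e-15). Its neighbour Cyp4a14 was at 0, 30.7, 6.94, 6.98 and 2.89 CPM in controls and 935, 878, 1064, 977 and 930.4 CPM in treated mice (log2 6.66 ± 0.74, adjusted p = 1.94e-09). The Cyp4a genes lie together on chr4 and are close copies, so reads could be shared between them. Acot2, a mitochondrial acyl-CoA thioesterase, had 3 molecules over the 5 controls and 628 over the treated mice, a ratio of 122 per molecule captured (95% 41.5 to 592). Its peroxisomal relative Acot3 had 3 and 405 molecules, a ratio of 78.6 (26.7 to 383). Cyp2a22, a cytochrome P450, had 1 and 93 molecules, a ratio of 54.1 (9.48 to 2160.5). All 3 passed the test, with adjusted p-values of 5.39e-06, 1.50e-07 and 6.61e-04.

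Of the 12 genes with the lowest fold change, Gm10681, an unnamed gene model on chr3, came first, at 275, 526, 471, 724 and 510.1 CPM in controls and at 0, 0.891, 0, 0 and 1.34 CPM in treated mice. It had 806 molecules in controls against 2 in treated mice, a ratio of 692 (95% 191 to 5728, adjusted p = 2.14e-09). Gm10681 (chr3:98552542-98564050) lies close to Hsd3b2 (chr3:98711107-98724543), another of these 12 genes, and sharing of reads between them was not tested. Cyp2c54, an arachidonic acid epoxygenase of the Cyp2c cluster, fell from 1339 ± 381 to 82.3 ± 75.9 CPM (SD, n = 5 each), a 16.3-fold difference (log2 -4.02 ± 0.38, adjusted p = 2.68e-11). Mup3, a major urinary protein that carries pheromones, was at 9757, 7590.2, 14176, 11725 and 11415 CPM in controls and at 785, 465, 938, 1264 and 568 CPM in treated mice (log2 -3.77 ± 0.34, adjusted p = 5.87e-12). The highest treated mouse for Mup3 was far below the lowest control.

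Elovl3, a male-biased elongase of saturated fatty acids, was at 561, 876, 1033, 1089.6 and 2029 CPM in controls and at 40.4, 48.6, 233, 111 and 126 CPM in treated mice (log2 -3.32 ± 0.58, adjusted p = 3.79e-05). Hsd3b2, a 3β-hydroxysteroid dehydrogenase, was at 260.2, 143, 157, 82.5 and 238 CPM in controls and at 6.76, 3.68, 21.6, 30.3 and 21.5 CPM in treated mice (log2 -3.39 ± 0.45, adjusted p = 1.53e-07). F11, coagulation factor XI, was at 38.3, 42, 33.4, 35.4 and 71.1 CPM in controls and at 2.16, 2.02, 1.75, 9.80 and 9.65 CPM in treated mice (log2 -3.12 ± 0.40, adjusted p = 8.31e-08). None of these 3 genes overlapped between the groups, which follows from the condition of non-overlapping groups by which they were chosen.

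The other 6 were lower-counted. Cyp2c50, a close relative of Cyp2c54, fell from 27.6 ± 9.11 to 2.24 ± 2.19 CPM (log2 -3.64 ± 0.61). Enho, which encodes the secreted peptide adropin, fell from 25.3 ± 11.3 to 2.23 ± 3.72 CPM (log2 -3.51 ± 1.06, adjusted p = 0.0305). Nat8f6, an N-acetyltransferase family member, ranged from 3.34 to 45.2 CPM in controls, a wide spread, and from 0 to 3.31 CPM in treated mice. Hapln4, a hyaluronan link protein, fell from 22 ± 9.93 to 2.75 ± 2.71 CPM, Tnfaip8l1, of the TNFAIP8 family, from 37.7 ± 9.66 to 4.72 ± 1.92 CPM, and Col27a1, a fibrillar collagen, from 40.3 ± 12.3 to 5.25 ± 1.56 CPM. The treated means of these genes, Col27a1 aside, lay under the level of 3 molecules in treated mice (5.04 CPM on average).

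**Figure D2:**
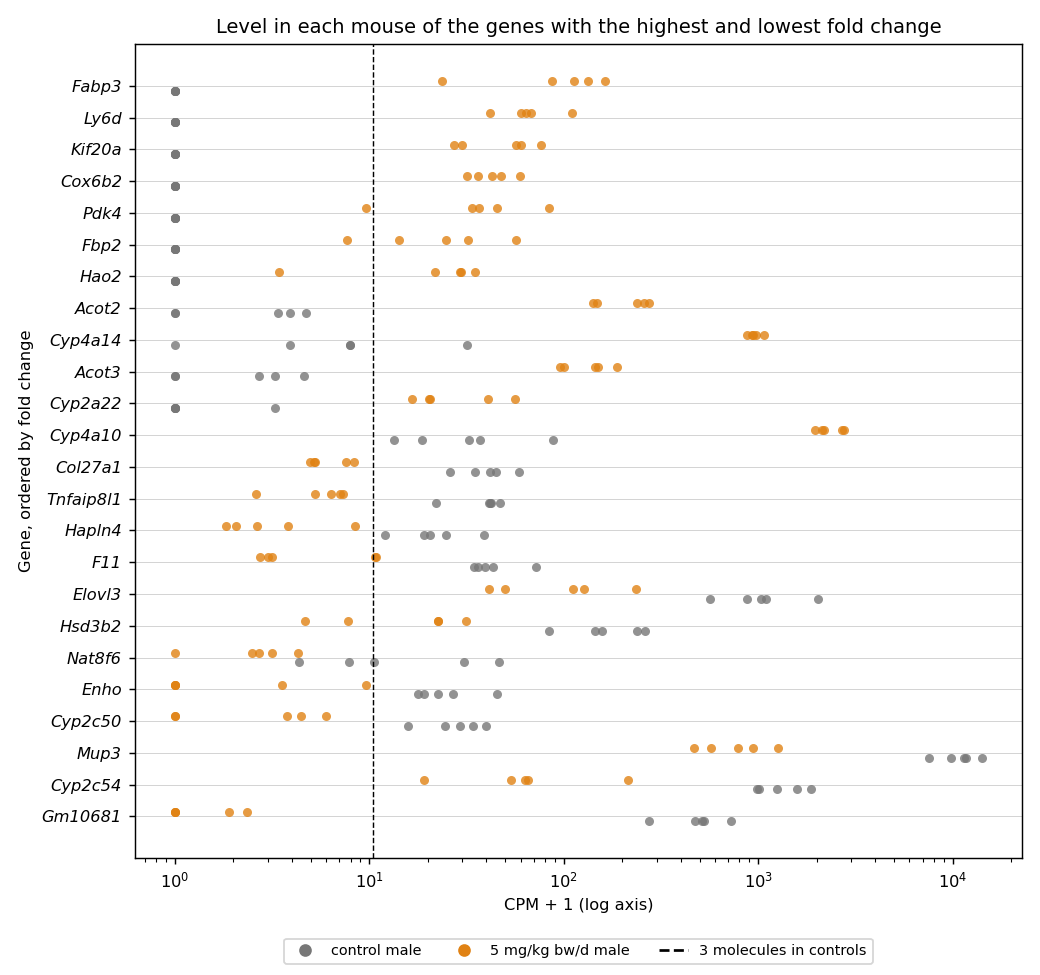
CPM of the 24 genes with the highest and lowest fold change in each of the 5 control (grey) and 5 treated (orange) male mice, on a log axis of CPM + 1, genes ordered by fold change. Each point is 1 mouse; the dashed line is the mean level of 3 molecules in controls (9.41 CPM), and the 7 uppermost genes have every control at 0.

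Many genes of fatty acid oxidation in peroxisomes, mitochondria and microsomes were increased. Of 29 peroxisomal β-oxidation genes, all tested, 14 were increased and 3 decreased, with a median log2 fold change of 0.81 (0.64 with genes at 0 in controls set to their bound) against 0.11 over all genes. Acaa1a and Acaa1b, the thiolases that close the cycle, rose by 2.47 ± 0.24 and 2.33 ± 0.52 log2. Crot and Crat, which move shortened acyl groups onto carnitine, rose by 2.47 and 2.85. Abcd3, a peroxisomal importer of acyl-CoA, rose by 1.70, and Ech1, which shifts double bonds, by 2.29. Abcd2, a second importer, was at 0 in controls and at 4.32, 7.54, 0.686, 0 and 5.14 CPM in treated mice, a level near or under that of 3 molecules in most of them (adjusted p = 0.0316). The 3 decreased members were Pecr at -1.31, Nudt7, a hydrolase of peroxisomal coenzyme A, at -1.04, and Phyh, the enzyme that starts the oxidation of branched phytanic acid, at -0.82.

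Ehhadh, the bifunctional enzyme of the cycle, was at 167, 257, 247, 213 and 139 CPM in controls and at 11731, 12884, 11037, 8124 and 9211 CPM in treated mice. That is a 51.8-fold difference (log2 5.69 ± 0.20, adjusted p = 5.66e-28). Ehhadh lies at chr16:21761285-21787834 (GRCm38) and was at 1926 ± 265 CPM at 0.5 mg/kg bw/d. Of 16 peroxins, which build the organelle, 3 were increased (18.8%, against 5.59% of all genes) and none decreased, with a median of 0.26. Pex11a, the peroxin that drives peroxisome division, was at 21.1, 19.9, 32.5, 28.3 and 9.39 CPM in controls and 154.2, 157, 134, 67.7 and 91.7 CPM in treated mice (log2 2.44 ± 0.36, adjusted p = 1.31e-06). Pex19, a chaperone of membrane proteins, rose by 0.71 ± 0.18, and the call for Pex16 (0.45 ± 0.16) was lost in most alternatives, among them without mice 103, 105, 401, 402 and 405 in turn (adjusted p = 0.121 to 0.2505).

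Of 27 genes of mitochondrial β-oxidation and ketogenesis, 20 were increased and none decreased, with a median of 1.31 (1.18 at the bounds). Acadl, the long-chain acyl-CoA dehydrogenase, was at 144, 162, 117, 154.3 and 134 CPM in controls and 748, 868, 677, 637 and 633 CPM in treated mice (log2 2.33 ± 0.15, adjusted p = 7.70e-17). The medium-chain and very-long-chain dehydrogenases Acadm and Acadvl rose by 1.62 and 1.03, and Hadha and Hadhb, the subunits of the trifunctional protein, by 1.62 and 1.92. No mouse of one group reached the other for these genes. Cpt2, of the inner membrane, and Slc25a20, the carnitine carrier, rose by 1.18 and 1.59. Cpt1a, the liver form of the outer membrane carnitine transferase, had 11 molecules in controls and 12 in treated mice and did not pass the test (adjusted p = 0.958). The uncoupling proteins Ucp2 (log2 3.07 ± 0.41) and Ucp3 (0 in controls, 14.9, 17.2, 5.95, 4.40 and 4.51 CPM in treated mice) were also increased.

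In the microsomal ω-oxidation list, 13 of 15 genes were tested, with a median of 0.86. Of these, 5 were increased (38.5%, against 5.59% of all genes) and 1 decreased (7.69%, against 3.75%). Beside the Cyp4a genes above, Aldh3a2, the fatty aldehyde dehydrogenase, was at 191, 241, 227, 189 and 185 CPM in controls and 2395, 2341, 2011, 2006 and 1781 CPM in treated mice (log2 3.35 ± 0.18, adjusted p = 9.76e-20). Cyp4f14, which hydroxylates leukotrienes and vitamin E, was decreased (109.8 ± 4.69 to 28.03 ± 14.4 CPM, log2 -1.97 ± 0.27). The pathway thus held calls in both directions.

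Of 33 tested genes of fatty acid uptake, binding and lipid droplets, 19 were increased and 1 decreased, with a median of 1.49 (1.31 at the bounds). Plin2, the coat protein of lipid droplets in hepatocytes, was at 553, 541, 697, 379 and 468 CPM in controls and 3345, 4107, 3080.3, 1997 and 2758 CPM in treated mice (log2 2.54 ± 0.19, adjusted p = 1.37e-14). Vldlr, the VLDL receptor, was at 0, 2.98, 0, 0 and 0 and 31.96, 25.1, 12.7, 10.1 and 25.6 CPM (log2 5.13 ± 1.42), low in every control. Mgll, which frees fatty acids from monoglycerides, rose by 2.004 ± 0.30, Abhd5, the activator of the triglyceride lipase, by 1.13 ± 0.32, and Plin5 by 1.13 ± 0.29. Acsl1 and Acsl5, which charge fatty acids with coenzyme A, rose by 1.29 and 1.68, and Dbi, which binds the product, by 1.30. Plin4, another droplet coat protein, was at 8.12 ± 4.25 CPM in controls and 6.92 ± 4.13 CPM in treated mice (adjusted p = 1). The decreased member, Cideb at -0.44, which loads lipid onto VLDL, was not called without mouse 102, 103, 403 or 405 (adjusted p = 0.102 to 0.138).

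Of 28 tested genes of fatty acid and triglyceride synthesis, 10 were increased and 5 decreased, with a median of 0.72 (0.61 at the bounds). Fasn, fatty acid synthase, rose by 1.44 ± 0.33 log2 (adjusted p = 0.00227), Acaca, which makes its substrate, by 1.43 ± 0.35, and Scd1, the main Δ9 desaturase of liver, by 2.24 ± 0.40. Scd1 was at 911, 1617, 1736, 2961 and 1008 CPM in controls and at 9636, 6845, 7151, 5723 and 9481 CPM in treated mice. Scd2, its relative outside the liver, was at 3.49, 4.09, 0, 6.35 and 0 CPM in controls and at 115, 232, 138, 49.8 and 144 CPM in treated mice (log2 5.60 ± 0.95, adjusted p = 2.35e-05). Mogat1, of the monoacylglycerol pathway, was at 0 in controls and at 11.4, 12.1, 13.96, 20.8 and 14.1 CPM in treated mice (at least 1.54-fold higher, adjusted p = 0.00196). Against these, Dgat2, which makes triglyceride from newly synthesized fatty acid, and Agpat2 fell by 1.10 log2 each, from 560.2 ± 83.0 to 261 ± 57.9 CPM and from 124 ± 24.5 to 57.5 ± 16.7 CPM. Elovl2, an elongase of polyunsaturated fatty acids, was lower (log2 -0.63 ± 0.16). Lpin1, a phosphatidate phosphatase, ranged from 61.6 to 1397 CPM in controls and from 54.8 to 168 CPM in treated mice (log2 -2.16 ± 0.54, adjusted p = 0.00588), and its call was lost without control 104, the highest (adjusted p = 0.152).

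Of 24 genes of cholesterol synthesis, 6 were increased and none decreased, with a median of 0.43. Hmgcs1, which makes HMG-CoA, rose by 1.51 ± 0.29 log2 (adjusted p = 1.53e-04), Cyp51, which demethylates lanosterol, by 1.17 ± 0.34, and Idi1 by 1.15 ± 0.30. The count of increased members ranged from 4 to 8 when each mouse was left out in turn.

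The sections carried the markers of liver: the summed level of the 13 hepatocyte markers in the table (of 14) was 30076 to 36562 CPM in controls and 17016 to 21361 CPM in treated mice, without overlap, and 8 of 13 tested were decreased and none increased (median -0.74). Alb, albumin, was at 3439, 4078, 3231, 3138 and 2947 CPM in controls and 3033, 3876, 2909, 2971 and 3228 CPM in treated mice (log2 -0.07 ± 0.11, adjusted p = 0.975). In these bulk samples, fewer cells of a type and less of an RNA per cell cannot be told apart. The part of this change in the counts of other hepatocyte genes, given next, was not tested.

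Many genes for proteins that the liver secretes into plasma were decreased, although others, such as Alb above, were not called. Of 24 coagulation and fibrinolysis genes, 17 were decreased and none increased (median -0.76), and the count stayed between 17 and 18 when each mouse was left out. F7 was at 72.7, 59.9, 57.7, 62.5 and 72.4 CPM in controls and at 11.4, 13.6, 19.98, 19.6 and 26.5 CPM in treated mice, without overlap (adjusted p = 1.57e-07). The fibrinogen chains Fga, Fgb and Fgg were lower (log2 -0.71, -0.61 and -1.23), Serpinc1, which encodes antithrombin (log2 -0.74), Plg, plasminogen (log2 -0.86), and Proc, protein C (log2 -0.86). Procoagulant factors and their inhibitors were therefore both among the decreased genes. F2, prothrombin, was at 139.9 ± 22.2 CPM in controls and at 112 ± 9.17 CPM in treated mice (log2 -0.32 ± 0.15, adjusted p = 0.198).

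Of 23 tested complement genes, 16 were decreased and none increased (median -0.86), with a range of 13 to 15 over the left-out mice. The terminal pathway genes C8a, C8b, C8g and C9 were lower (log2 -1.52, -1.58, -1.57 and -1.47), C1s1, a classical pathway protease (log2 -1.65), and C4b (log2 -1.11). C9 was at 922, 605, 1064, 741 and 1123 CPM in controls and at 379, 199.9, 372, 327 and 332 CPM in treated mice, without overlap (adjusted p = 1.45e-04). C3, the central component, was at 1725 ± 267 and 2113 ± 399 CPM (log2 0.29 ± 0.11, adjusted p = 0.137, and 0.0403 to 0.0519 without mouse 103 or 401). Of 18 apolipoprotein and lipoprotein assembly genes, 11 were decreased and 1 increased (median -0.58). Apoa4, which is made with lipid export, fell from 210.4 ± 52.1 to 41.04 ± 17.1 CPM (log2 -2.36 ± 0.34, adjusted p = 9.77e-07), Scarb1, the HDL receptor, was lower (log2 -1.29 ± 0.26), and Lipc, hepatic lipase (log2 -1.27 ± 0.19). Mttp, which lipidates apolipoprotein B, was the increased member (log2 0.49 ± 0.13, adjusted p = 0.00848), while Apob itself was lower (log2 -0.62 ± 0.13).

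Of 23 tested acute phase genes, 5 were decreased (21.7%, against 3.75% of all genes) and 1 increased (4.35%, against 5.59%), with a median of -0.59. Itih4 was lower (log2 -2.01 ± 0.19), Orm1 (log2 -1.71 ± 0.23), Hamp, which encodes the iron hormone hepcidin (log2 -1.63 ± 0.30), and Crp (log2 -1.05 ± 0.11). Mt2, a metallothionein, was at 3.41, 13.97, 3.51, 9.21 and 3.43 CPM in controls and at 239.6, 198, 49.0, 13.1 and 23.2 CPM in treated mice (log2 3.96 ± 0.92, adjusted p = 0.00263). Its treated mice differed widely, and mouse 404 lay below control 102. The serum amyloid genes Saa1 and Saa2, the strongest responders of a classical acute phase, did not pass the test, at 102.3 ± 48.8 and 56.4 ± 18.1 CPM for Saa1 (adjusted p = 0.764).

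Of 12 urea cycle and ammonia genes, 8 were decreased and none increased (median -0.53). Cps1, the entry enzyme, was at 76.7, 56.4, 70.8, 67.8 and 46.7 CPM in controls and at 17.1, 34.98, 29.1, 28.2 and 30.8 CPM in treated mice (log2 -1.18 ± 0.24, adjusted p = 4.96e-04). Otc, Ass1 and Asl, the next 3 steps, were lower (log2 -0.91, -1.29 and -1.11), and Gls2, the liver glutaminase (log2 -1.21). Of 46 amino acid catabolism genes, 24 were decreased and 1 increased (median -0.76). Cdo1, which oxidizes cysteine, fell from 170.2 ± 13.4 to 34.9 ± 15.5 CPM (log2 -2.29 ± 0.24, adjusted p = 2.66e-10) and Prodh, which oxidizes proline, from 152.1 ± 8.85 to 33.3 ± 12.97 CPM (log2 -2.19 ± 0.24). Gldc of the glycine cleavage system, Oat, ornithine aminotransferase, and Agxt were lower (log2 -1.86, -1.79 and -1.61). The increased member was Pcbd1 (log2 0.39 ± 0.12), a pterin recycling enzyme, whose call was lost without mouse 101 or 405 (adjusted p = 0.103 to 0.133).

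Of 31 tested glucose and glycogen genes, 8 were decreased (25.8%, against 3.75% of all genes) and 1 increased (3.23%, against 5.59%), with a median of -0.18. Slc37a4, the glucose 6-phosphate transporter of the endoplasmic reticulum, fell from 163 ± 33.4 to 42.8 ± 16.7 CPM (log2 -1.93 ± 0.21, adjusted p = 1.95e-09), Khk, ketohexokinase, was lower (log2 -1.25 ± 0.19), and Pygl, glycogen phosphorylase (log2 -0.77 ± 0.12). G6pc, which releases free glucose, was at 119 ± 75.8 and 78.4 ± 44.9 CPM (adjusted p = 0.626). The increased member was Pkm, at 0 in controls and at 5.20, 1.37, 2.44, 2.91 and 0 CPM in treated mice, under the level of 3 molecules, and its call was lost without mouse 401 or any 1 of the controls (adjusted p = 0.109 to 0.135).

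Of 26 genes of bile acid synthesis and hepatocyte transport, 11 were decreased (42.3%, against 3.75% of all genes) and 1 increased (3.85%, against 5.59%), with a median of -0.66. Slc10a1, the sodium-coupled bile acid importer NTCP, was at 269, 299, 318, 396 and 285 CPM in controls and at 80.5, 70.9, 74.0, 81.6 and 40.4 CPM in treated mice, without overlap (log2 -2.174 ± 0.18, adjusted p = 2.93e-13). Cyp7b1, the oxysterol hydroxylase of the alternative pathway, fell from 142 ± 62.3 to 18.9 ± 15.5 CPM (log2 -2.91 ± 0.48). Akr1d1, which reduces the bile acid ring, was lower (log2 -1.68 ± 0.27), and the organic anion importers Slco1b2 and Slco2b1 (log2 -0.62 and -0.79). Cyp7a1, the rate-limiting enzyme of the classical pathway, ranged from 65.9 to 317 CPM in controls and from 52.5 to 125 CPM in treated mice (adjusted p = 0.238). Abcc4, an exporter at the blood side, was at 0 in controls and at 8.78, 14.1, 4.27, 1.56 and 6.90 CPM in treated mice (adjusted p = 0.0101), with a mean under the level of 3 molecules in controls.

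Male-biased genes were lower and part of the female-biased genes higher. Of 23 tested male-biased genes, 14 were decreased and 1 increased (median -1.44). Of 13 tested major urinary protein genes, 8 were decreased and none increased (median -1.45), and the summed level of all 15 in the table fell from 108930 to 150620 CPM in controls to between 33967 and 48459 CPM in treated mice. The 8 were Mup3, Mup4, Mup7, Mup8, Mup12, Mup13, Mup16 and Mup19, with log2 fold changes of -3.77 to -1.16; these are near-identical copies, and which of them a read came from is uncertain. Egfr, the epidermal growth factor receptor, fell from 379.9 ± 79.2 to 122 ± 43.1 CPM (log2 -1.63 ± 0.28, adjusted p = 3.14e-05). Serpina4-ps1, which is not thought to make a protein, was at 34.9, 28.8, 0, 194 and 67.1 CPM in controls and at 0, 6.06, 0, 0 and 1.06 CPM in treated mice (log2 -5.46 ± 1.65), and its call was lost without control 104, the highest (adjusted p = 0.104).

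Of 33 tested female-biased genes, 9 were increased and 1 decreased, with a median of 0.14 (0.00 at the bounds), and 13 of the 33 were at 0 in every male control. Cyp2b9, a female-biased cytochrome P450, was at 0, 12.8, 0, 3.02 and 0 CPM in controls and at 70.1, 74.6, 48.2, 91.5 and 62.3 CPM in treated mice (log2 4.46 ± 0.83, adjusted p = 1.07e-04). Control females were at 105.3 ± 19.1 CPM and treated females at 121 ± 31.5 CPM, so that the treated males lay between male and female controls. Acot3, at 135 ± 38.5 CPM in treated males, passed the mean of control females (57.1 ± 41.4 CPM). Hao2, at 22.8 ± 12.3 CPM in treated males, remained under the 59.6 ± 42.7 CPM of control females, and Cyp2b13, at 5.68 ± 4.02 CPM, under 13.7 ± 7.42 CPM. Cyp2a4, a steroid 15α-hydroxylase, rose from 29.96 ± 26.2 to 144 ± 75.8 CPM (log2 2.27 ± 0.59, adjusted p = 0.00848). Cyp3a41a, the female-biased gene with the highest level in control females (3256 ± 597 CPM), was at 229 ± 67.2 and 206 ± 34.8 CPM in males (adjusted p = 1).

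**Figure D3:**
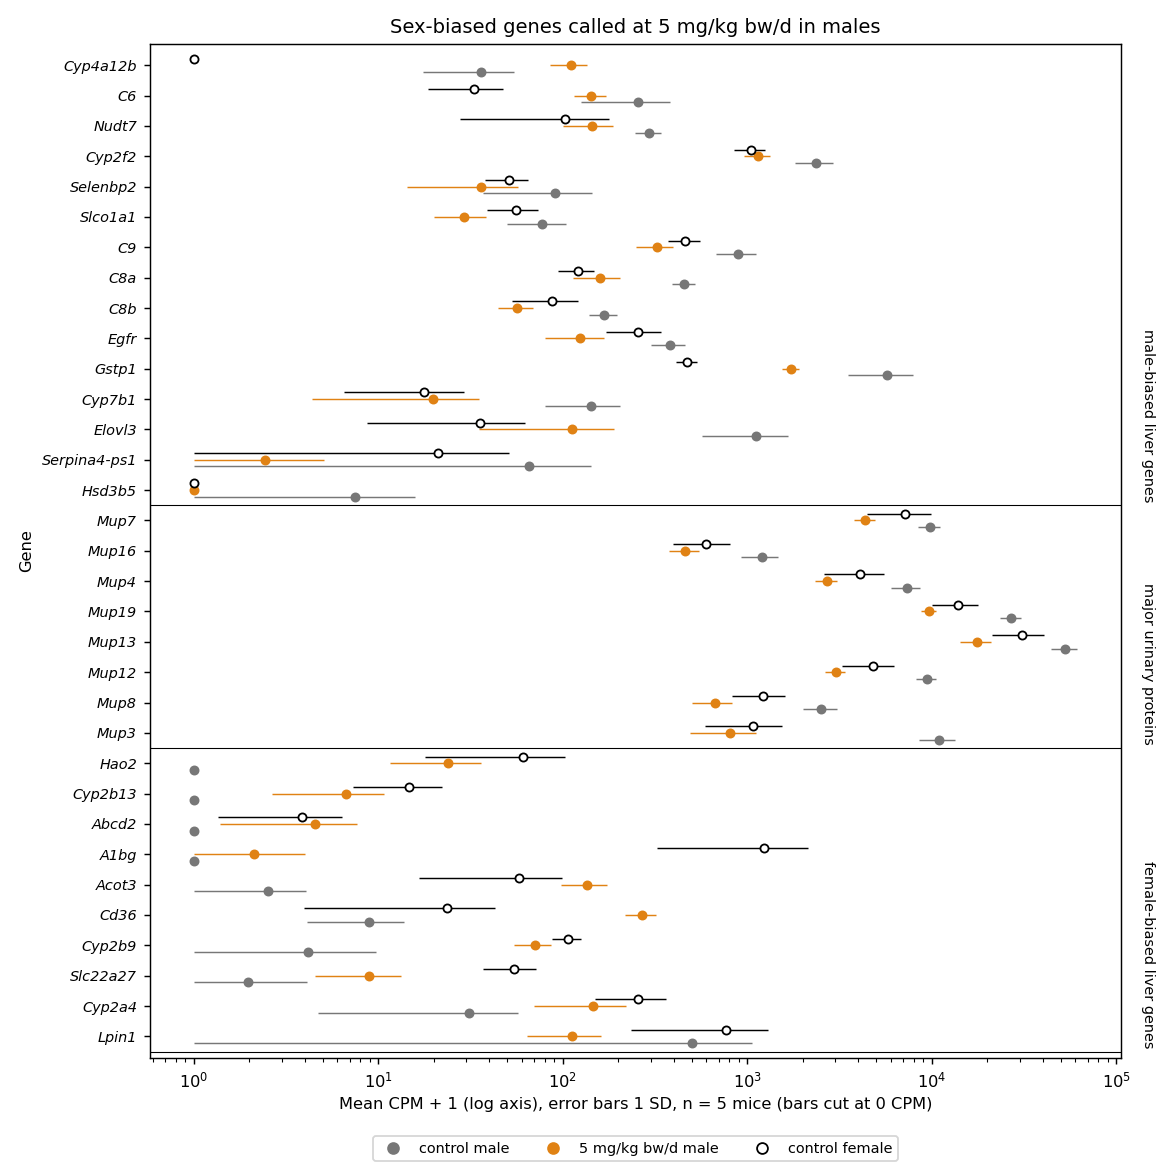
Mean CPM (log axis of CPM + 1, error bars 1 SD, n = 5 mice each) of the called male-biased, major urinary protein and female-biased genes in control males (grey), males at 5 mg/kg bw/d (orange) and control females (open). Most male-biased genes sit between the control sexes or below both after treatment. The increased female-biased genes sit above the control male mean, which was at 0 for some, such as Hao2 and Cyp2b13, but not for Cyp2a4.

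The male response differed from that of females in 148 of 12412 genes (1.19%) by the interaction test of the same fit, which compares groups that share no mouse, and in 93 genes without mouse 402. The log2 fold change was higher in males for 88 genes and lower for 60. Of the 148, 58 were increased in males and not called in females, 31 decreased in males and not called in females, and 26 were called in the same direction in both sexes. Depth did not shift alike in the sexes. Control females held an estimated 333674 to 522313 molecules and treated females 304572 to 339376, whereas treated males held more than control males. The part of this difference in the sex comparison, above all for low genes, was not tested. Fabp4, the adipocyte fatty acid binding protein, had the clearest excess in males, at 39.8, 39.1, 28.2, 47.9 and 16.8 CPM in control and 709, 1350.5, 880.0, 201.3 and 505 CPM in treated males against 49.0 ± 9.38 and 70.3 ± 11.5 CPM in control and treated females. The difference of the log2 fold changes was 3.89 ± 0.42 (SE, adjusted p = 1.85e-08). Abhd2, a monoacylglycerol lipase, rose to 249 ± 71.6 from 69.9 ± 23.5 CPM in males, which is the level of females in either group (274 ± 69.0 and 246 ± 46.9 CPM, difference 1.99 ± 0.29, adjusted p = 1.98e-05). Aldh3a2 rose in both sexes, by 3.35 in males and 1.79 in females (difference 1.56 ± 0.24, adjusted p = 4.77e-05).

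For Cyp3a41a and Cyp3a41b, near-identical female-biased genes, the change was in females. Control and treated males stayed at 344 ± 55.6 and 378 ± 80.6 CPM of Cyp3a41b, while females went from 995 ± 186 to 323 ± 123 CPM (difference 1.76 ± 0.28, adjusted p = 1.82e-04). Hsd17b13, a lipid droplet protein of hepatocytes, was at 74.1, 63.5, 58.0, 65.4 and 52.2 CPM in control males and at 221, 402.8, 267, 549 and 277 CPM in treated males, and at 139 ± 57.6 and 159 ± 57.0 CPM in females (difference 2.26 ± 0.45, adjusted p = 0.00399). Plin2 also rose more in males, by 2.54 against 1.504 log2 (adjusted p of the difference = 0.0406, and 0.104 to 0.135 without female 153 or 453 or male 402), and Acadl by 2.33 against 1.51 (0.0427, and 0.102 to 0.132 without male 103 or 402 or female 154).

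Among genes lower in the male response, Gstp1, a glutathione transferase, was at 4775, 2639, 6064, 6526 and 8571 CPM in control males and at 2009, 1569, 1659, 1814 and 1581 CPM in treated males. In females it was at 471 ± 61.0 and 759 ± 142 CPM, so the sexes moved in opposite directions (log2 -1.73 and 0.69, the latter with adjusted p = 0.0584, difference -2.42 ± 0.30, adjusted p = 7.06e-07). Cyp2c29 fell from 2225 ± 72.8 to 314 ± 118 CPM in males and from 1133 ± 226 to 577 ± 118 CPM in females (difference -1.85 ± 0.24, adjusted p = 1.58e-06). Ephx2, the soluble epoxide hydrolase, rose by 0.73 log2 in males against 1.72 in females, and treated mice of both sexes reached about the same level (2406 ± 152.6 and 2316 ± 184 CPM, adjusted p of the difference = 1.98e-05). Ttc39c, a tetratricopeptide repeat protein, fell by 2.53 log2 in males (477 ± 67.7 to 82.3 ± 35.99 CPM) and was at 74.0 ± 13.8 and 51.8 ± 14.03 CPM in females (difference -2.02 ± 0.32, adjusted p = 1.03e-04). Cyp4a12a, a male-biased ω-hydroxylase, was at 169 to 268 CPM in control males and 222 to 404.3 CPM in treated males (adjusted p = 0.401), whereas females went from under 1 molecule to 149.6 ± 61.0 CPM (adjusted p of the difference = 4.84e-14). Its near copy Cyp4a12b was at 0 in control females and at 24.8 ± 15.99 CPM in treated females, and at 34.9 ± 18.3 and 109 ± 25.6 CPM in males (adjusted p of the difference = 2.23e-05), where its own call (adjusted p = 0.0640) was lost without mouse 101, 102, 103, 401, 402 or 403 (0.102 to 0.174). Cyp2b13, at 0 in control males, completed the 6 genes with the smallest p for a higher male response (adjusted p of the difference = 9.35e-04).

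**Figure D4:**
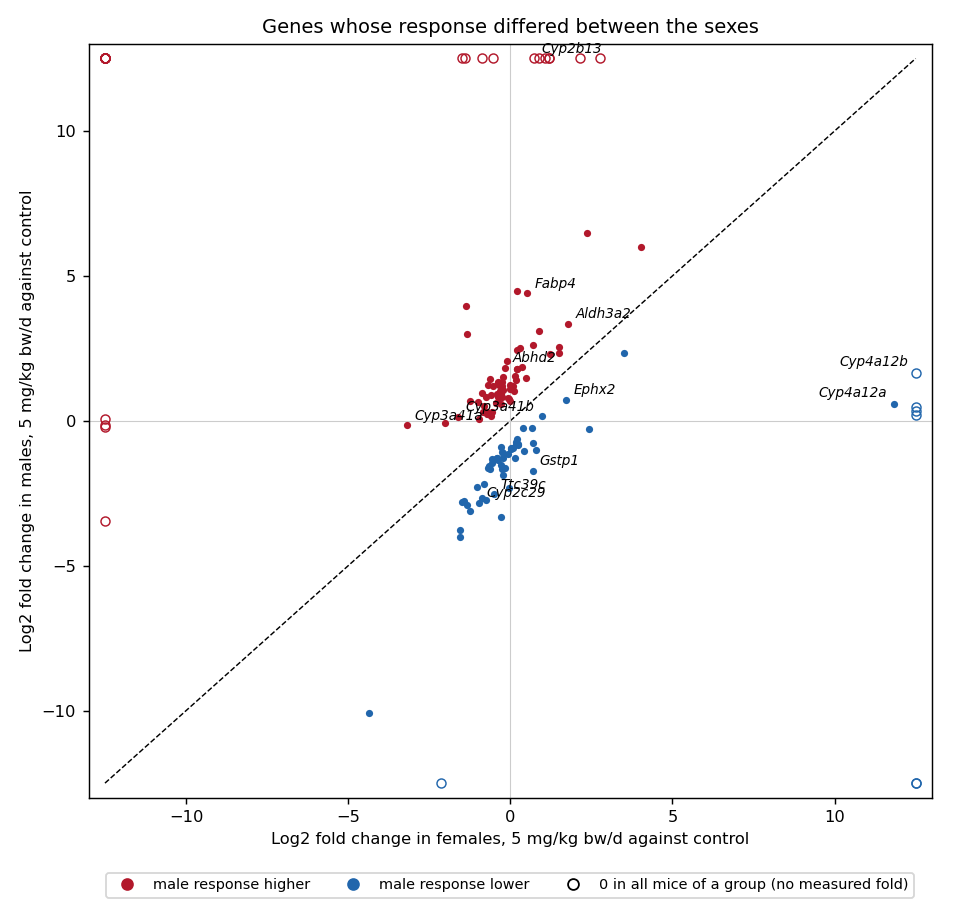
Log2 fold change at 5 mg/kg bw/d in males (vertical) against females (horizontal) for the 148 genes whose response differed between the sexes by the interaction test, with the line of equal response dashed. Genes at 0 in all mice of 1 or more of the 4 groups are open and drawn at the edge; the 88 genes above the line were higher in males, and the labelled genes are those with the smallest p in each direction.

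Enzymes that act on foreign compounds were split. Of 35 tested xenobiotic cytochrome P450 genes, 6 were increased (17.1%, against 5.59% of all genes) and 11 decreased (31.4%, against 3.75%), with a median of -0.15. The decreased members included 4 of the Cyp2c cluster on chr19: beside the 3 above, Cyp2c70, which hydroxylates bile acids in mice, at -2.01 ± 0.24 log2. Cyp1a2 was lower (log2 -1.503 ± 0.27), Cyp3a25 (log2 -1.17 ± 0.23) and Cyp2e1, the ethanol-inducible form (log2 -0.94 ± 0.18). Cyp2b10, the marker target of the receptor CAR, ranged from 6.35 to 74.6 CPM in controls and from 1.07 to 41.7 CPM in treated mice (adjusted p = 0.424). Cyp3a11, the marker target of PXR, was at 348 ± 47.7 and 692 ± 197 CPM (adjusted p = 0.117, and 0.0757 without mouse 401).

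Of 39 tested conjugation enzymes, 6 were increased and 6 decreased (15.4% each, against 5.59% and 3.75% of all genes), with a median of -0.07. Gsta1, a glutathione transferase whose reads could be shared with Gsta2, rose from 13.4 ± 13.9 to 145 ± 64.1 CPM (log2 3.43 ± 0.99, adjusted p = 0.0217). The sulfotransferase Sult1a1 was at 501, 715, 341, 474 and 573 CPM in controls and 48.4, 75.8, 49.9, 74.1 and 97.5 CPM in treated mice (log2 -2.91 ± 0.27, adjusted p = 9.43e-12), and Sult5a1 was at 6.83, 12.6, 3.36, 14.8 and 27.4 CPM in controls and at 0 in every treated mouse (at least 2.58-fold lower, adjusted p = 4.58e-05). Of 25 carboxylesterase and aldehyde dehydrogenase genes, 4 were increased and 7 decreased (median -0.24), with Ces2c higher by 2.52 ± 0.36 and Ces3b lower (log2 -2.78 ± 0.21). Of 20 tested NRF2 targets, 7 were increased and 1 decreased (median 0.66, or 0.59 at the bounds). Ephx1, the microsomal epoxide hydrolase, rose by 1.43 ± 0.23, Ugdh, which makes glucuronic acid donors, by 1.05 ± 0.16, and the ferritin chains Ftl1 and Fth1 by 0.92 and 0.69. Gclc, the limiting enzyme of glutathione synthesis, was at 47.0 ± 24.7 and 53.6 ± 6.56 CPM (adjusted p = 0.987), and the number of increased NRF2 targets ranged from 4 to 8 over the left-out mice, lowest without mouse 402. The decreased member, Osgin1 (log2 -1.144 ± 0.35, adjusted p = 0.0311), was not called without mouse 402 or 403 (0.120 to 0.130).

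Cell cycle genes were nearly unmeasured in control livers. Of 43 tested replication and mitosis genes, 18 were at 0 in every control, and the median was 3.03, or 0.16 with genes at 0 set to their bound. Of the 43, 5 were increased (11.6%, against 5.59% of all genes) and 1 decreased (2.33%, against 3.75%). The summed level of the list was 121.7 to 178.0 CPM in controls and 367.0 to 524.6 CPM in treated mice, without overlap. Beside Kif20a, the increased members were Top2a, which untangles chromosomes, at 5.95, 13.4, 19.8, 19.7 and 8.03 CPM in treated mice, Plk1, a mitotic kinase, at 10.6, 9.86, 21.7, 20.2 and 4.37 CPM, Cenpe, a kinetochore motor, at 9.73, 13.1, 18.3, 26.5 and 20.5 CPM, and Prc1 at 7.84, 8.02, 7.70, 9.16 and 6.06 CPM, all at 0 in controls. Adjusted p-values were 0.0148, 0.0418, 0.0155 and 0.0649, and the call for Prc1 was lost without any 1 of the 5 controls (adjusted p = 0.119 to 0.120). Tk1, thymidine kinase, was decreased (17.2 ± 8.23 to 3.32 ± 1.49 CPM, log2 -2.37 ± 0.57). Mki67, the proliferation antigen Ki-67, was at 0 in controls and at 3.31, 0.119, 1.83, 4.33 and 2.46 CPM in treated mice (adjusted p = 0.146). These counts lie close to the number of molecules captured, which was higher in every treated library; after thinning all libraries to 287643 molecules, 2 of the list's genes had enough counts to be tested.

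Of 27 tested p53 targets and apoptosis genes, 3 were increased (11.1%, against 5.59% of all genes) and none decreased. Their median was 0.93, or 0.44 with genes at 0 in controls set to their bound. Among the 3 was Ccng1, a p53 target, at 16.6, 18.6, 11.3, 26.1 and 19.2 CPM in controls and 55.9, 45.5, 50.5, 78.2 and 59.9 CPM in treated mice (log2 1.66 ± 0.30, adjusted p = 6.40e-05). Cdkn1a, the p21 cell cycle inhibitor, was at 0.702 ± 1.57 and 8.97 ± 4.05 CPM (adjusted p = 0.178, and 0.00742 without mouse 103). Of 48 tested proteasome genes, 7 were increased (14.6%, against 5.59% of all genes) and none decreased (median 0.37). The 7 were Psma3, Psma6, Psmc2, Psmc4, Psmd5, Psmd6 and Psmd8, higher by 0.54 to 0.86 log2. Of 76 tested cytosolic ribosomal protein genes, 19 were increased and 1 decreased (median 0.15), but with DESeq2's size factors, which shift the median of all genes to 0.04, 10 were increased, as they were without mouse 402, and after thinning 15 were increased and 5 decreased. The decreased gene, Rps29 (log2 -0.32 ± 0.11, adjusted p = 0.0814), was not called without mouse 102, 103, 104, 403, 404 or 405 (0.128 to 0.194). The highest fold change among them was that of Rps23 (69.2 ± 14.4 to 238 ± 33.96 CPM, log2 1.78 ± 0.23), whose response also differed between the sexes (adjusted p = 0.00399). Of 79 tested oxidative phosphorylation genes, 15 were increased and none decreased (median 0.24), and 12 and 16 were increased under the same alternatives, with 1 and 4 decreased. Their highest fold changes with reads in controls were those of Ndufab1, the mitochondrial acyl carrier protein, at 1.61 ± 0.18, Cox6c at 1.28 ± 0.21 and Atp5g3 at 1.04 ± 0.12.

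Of 28 liver nuclear receptors and transcription factors, none was increased and 2 were decreased (7.14%, against 3.75% of all genes; median -0.20). Rxra, which encodes the partner of PPARα, was lower (log2 -0.35 ± 0.12, adjusted p = 0.0821), a call lost without mouse 101, 104, 105, 401, 402 or 403 (0.122 to 0.235). Ppara itself was at 154.3, 158, 213, 148 and 101.7 CPM in controls and at 117, 75.3, 86.8, 126 and 151.9 CPM in treated mice (log2 -0.48 ± 0.28, adjusted p = 0.353), with the groups overlapping. Hnf4a, which maintains hepatocyte gene expression, was at 227, 291, 408, 379.6 and 486 CPM in controls and at 218, 232, 208, 184 and 188 CPM in treated mice (log2 -0.80 ± 0.16, adjusted p = 4.97e-04). Of 29 tested genes of the growth hormone axis and hepatokines, 2 were increased (6.9%, against 5.59% of all genes) and 8 decreased (27.6%, against 3.75%), with a median of -0.48. Igf1, the main growth hormone target secreted by liver, fell from 102.9 ± 19.6 to 40.6 ± 13.7 CPM (log2 -1.34 ± 0.23, adjusted p = 3.79e-05), and Igfbp3 was lower (log2 -0.90 ± 0.26). Ghr, the growth hormone receptor, was at 101.9 ± 33.7 and 81.7 ± 6.998 CPM (adjusted p = 0.566). Lepr was increased by the test but rests on 5 molecules in 3 treated mice and none in controls.

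Along the liver lobule, 12 of 20 periportal markers were decreased and 1 increased (median -1.12), and 6 of 20 pericentral markers were decreased and 1 increased (median -0.52). The periportal result overlaps earlier ones. Cps1, Ass1, Asl, Arg1, Gls2, Sds, Hal and Gldc, among these 12, were also counted as urea cycle or amino acid catabolism genes. Periportal examples beside the urea cycle genes were Pigr, the receptor that carries IgA into bile, at -1.99 ± 0.39 log2, Hal, histidine ammonia-lyase, at -1.59 ± 0.20, and Ctsc at -1.41 ± 0.31. The pericentral gene Slc1a2, a glutamate transporter, was lower (log2 -1.97 ± 0.57), while Glul, glutamine synthetase of the innermost pericentral cells, was at 1052, 1339, 565, 1240.4 and 1337 CPM in controls and 801, 589, 706, 955 and 684 CPM in treated mice (adjusted p = 0.122, and 0.0229 to 0.0765 without mouse 103 or 404).

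The recruited macrophage and monocyte markers, 13 of 14 in the table, summed to 88.2 to 143 CPM in controls and 176 to 339 CPM in treated mice, without overlap, but 7 of the 13 stayed under 3 molecules in all 10 mice. Of the 9 tested, 2 were increased (22.2%, against 5.59% of all genes): Cd9 rose from 19.1 ± 9.13 to 54.4 ± 8.50 CPM (log2 1.51 ± 0.34, adjusted p = 0.00149) and Lyz2 by 1.21 ± 0.38, the latter not called without mouse 102 or 405 (adjusted p = 0.114 to 0.184). The 14 Kupffer cell markers summed to 311 to 645 CPM in controls and 272 to 401 CPM in treated mice, with 2 of 13 decreased (15.4%, against 3.75% of all genes): Folr2 on 3 molecules in controls and none in treated mice, not called without mouse 102 or any 1 treated mouse (adjusted p = 0.112 to 0.128), and C6 (log2 -0.84), not called without mouse 103, 104, 105, 401, 402 or 405 (adjusted p = 0.124 to 0.273). C6 was also counted above among the complement and male-biased genes, and its 408 molecules in controls are part of the Kupffer cell sum. The 14 sinusoidal endothelial markers (414 to 472 and 340 to 479 CPM) had 1 decreased gene, Clec4g at -0.61, whose call was lost without mouse 102, 103, 401, 402 or 403 (adjusted p = 0.146 to 0.202). Of 16 stellate cell and fibroblast markers (355 to 444 and 414 to 473 CPM), 2 were increased (12.5%) and 1 decreased (6.25%): Col3a1, type III collagen, rose from 8.69 ± 3.23 to 47.5 ± 13.5 CPM (log2 2.45 ± 0.67, adjusted p = 0.0135), Col1a1 by 1.63 ± 0.53, not called without mouse 101, 102 or 402 (adjusted p = 0.135 to 0.160), and Ecm1 was lower (log2 -0.66), not called without mouse 402 or 403 (adjusted p = 0.118 to 0.122).

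Of 7 tested cholangiocyte markers (34.96 to 67.8 and 53.2 to 121 CPM in sum over 12), Krt23 was the only one called, at 0 in controls and at 8.51, 11.2, 9.15, 17.7 and 19.01 CPM in treated mice (at least 1.39-fold higher, adjusted p = 0.00338), while Krt19, the usual bile duct keratin, was at 5.39 ± 4.17 and 0.784 ± 1.09 CPM. None of the 9 tested lymphocyte markers, 5 neutrophil markers or 3 red cell markers was called, and 11 of 14 lymphocyte and 11 of 12 neutrophil markers stayed under 3 molecules in all 10 mice. The adipocyte markers Fabp4 and Cidec were increased, and Car3 fell from 1616 ± 375 to 499 ± 206 CPM. Cidec had 22 molecules in treated mice, none in controls and no call without any 1 mouse but 404 (adjusted p = 0.102 to 0.139). Adipoq, Lep, Plin1 and Retn had too few reads to be tested. Which cells held these RNAs was not tested. Of the 14 adipocyte markers, 6 were at 0 in all 10 mice, and the sums overlapped (1311 to 2295 and 906 to 1761 CPM).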

How the data were processed

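Livers of 40 mice were measured with TempO-Seq. The authors deposited raw read counts of 30146 probes (21448 gene symbols), 1 column a mouse; per the submitters' processing notes bcl2fastq 2.17.1.14 and Bowtie were used, with mm10. Following the methods of the study, libraries under the mean total by more than 2 SD (9680193 reads) were left out, which removed 1 female at 0.5 mg/kg bw/d (mouse 355, 6711981 reads). Counts of the other 39 were fitted in edgeR 4.0.16 (R 4.3.3; TMM, filterByExpr, 1 coefficient a group, quasi-likelihood F-test), and p-values were adjusted over 17877 probes with a threshold of 10%, tested on simulated data first. The study's own tool, DESeq2 (1.42.0 here), was an alternative. Genes were counted on their most counted probe, without 37 probes whose symbols had become dates. Reads carry no molecular identifiers, so captured molecules were estimated as reads divided by the first peak of each library's count histogram; intervals on them cover counting error only. At least 3 molecules were required to set a fold against 0. Replicates are separate mice.

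Named genes were the 12 with the highest and 12 with the lowest fold change among called, non-overlapping genes of at least 10 mean CPM, the 6 with the smallest interaction p in each direction, and members of gene lists, a few of which are not reported here. Members and lists were chosen with earlier results of these data known. Alternatives were another tool, size factors, filters, samples, probe summaries, thresholds, molecules, thinned molecules (287643 a library) and leaving out each mouse.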

Additional observations from a re-analysis of the deposited data

Results flagged for a closer look

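Single mice far from their group were sought on the log2 of CPM + 1, in 438 groups of 5 mice (219 named genes, each in the control and the 5 mg/kg bw/d males). In 31 groups, a mouse's gap to its nearest group mate, divided by the range of the group on that scale, was above Dixon's 95% critical value of 0.71. For normally distributed values about 1 in 20 groups would hold 1 by chance. Low counts differ, because a group at 0 in all mice cannot hold 1 and a group with all but 1 mouse at 0 always does. In the 31 groups, 7 of the mice were control 105. That mouse was high for C8a (569 CPM), Cyp2a22 (2.26 CPM, the others at 0), Mup19 (33029 CPM) and Nudt7 (378 CPM), and low for Abcd3 (19.7 CPM), Acadm (497 CPM) and Pex16 (115 CPM). Control 103 was high for Cdkn1a (3.51 CPM, the others at 0) and Hamp (348 CPM) and low for Cdo1 (147 CPM), Glul (565 CPM) and Tnfaip8l1 (20.9 CPM). Control 101 was low for C1s1 (255 CPM), Fgb (2299.7 CPM) and Gldc (37.9 CPM). Control 102 was high for Psmd6 (110.0 CPM) and Vldlr (2.98 CPM, the others at 0) and low for Asl (429.6 CPM), and control 104 was high for Slco2b1 (213 CPM) and low for Crot (15.95 CPM).

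Among the treated mice, 402 was high for Cyp2a4 (278 CPM) and Slco1b2 (111 CPM) and low for Akr1d1 (12.7 CPM), C9 (199.9 CPM) and Gls2 (72.4 CPM). Mouse 405 was high for Acaa1a (4894 CPM, the other treated mice at 2276 to 2427 CPM) and low for Slc10a1 (40.4 CPM) and Plin4 (0 CPM). Mouse 401 was high for Pex16 (318 CPM) and low for Hao2 (2.43 CPM), and mouse 404 was low for Abhd5 (27.8 CPM).

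The response to 5 mg/kg bw/d differed between males and females for 42 of the named genes by the edgeR interaction test. The 26 given here are the 12 with the smallest p and 14 others that were chosen after their values were seen, because all but Plin2 and Acadl kept the call without any 1 mouse. Genes higher in the male response were Fabp4 (adjusted p = 1.85e-08), Abhd2 (1.98e-05), Aldh3a2 (4.77e-05), Cyp3a41b (1.82e-04), Cyp3a41a (2.31e-04), Cyp2b13 (9.35e-04), Kif20a (0.00315), Hsd17b13 (0.00399), the ribosomal protein gene Rps23 (0.00399), the metallothionein gene Mt2 (0.0192), Plin2 (0.0406) and Acadl (0.0427). Genes lower in the male response were Cyp4a12a (adjusted p = 4.84e-14), Gstp1 (7.06e-07), Cyp2c29 (1.58e-06), Ephx2 (1.98e-05), Cyp4a12b (2.23e-05), Ttc39c (1.03e-04), the bile acid transporter gene Slc10a1 (0.00107), Cyp2c54 (0.00392), Mup3 (0.00399), Ces3b (0.00606), Sult1a1 (0.0148), Phyh (0.0223), Sult5a1 (0.0306) and Cyp2e1 (0.0336). Mt2 rose from 6.71 ± 4.76 to 104.5 ± 106 CPM in males, with overlapping groups, and was at 332 ± 277 and 129 ± 91.4 CPM in females (adjusted p in females = 0.468). Phyh, which starts the alpha-oxidation of branched fatty acids, was at 316 ± 44.3 and 179 ± 29.9 CPM in males and at 180.5 ± 20.05 and 214 ± 38.1 CPM in females (adjusted p in females = 0.658). Cyp2e1 stood at 5489 ± 792 and 2854 ± 489.9 CPM in males and at 5936 ± 1357 and 6340.1 ± 1777 CPM in females (adjusted p in females = 1).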

How the results depend on the processing

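No paired analysis was possible because the groups share no animal numbers. The main analysis called 694 genes increased, 466 decreased and 148 with a different response between the sexes. With all 40 libraries, mouse 355 included, the counts were 403, 249 and 23. At an adjusted p below 5%, 90 genes passed the sex comparison, with the DESeq2 Wald test 404 and with no filter on low counts 230. On estimated captured molecules 753 genes were decreased and 309 passed the sex comparison, and after thinning to equal totals 231 passed it. Leaving out 1 mouse at a time gave 543 to 649 increased genes, 393 to 445 decreased genes and 93 to 169 genes in the sex comparison, the lowest each time without mouse 402. Other counts stayed within 1.5 times the main ones. Of the 194 called genes named in the text, 150 kept the call at 10% under every alternative that gave a value, and 24 lost it only with all 40 libraries. Fold changes that did not pass the test changed sign for Alb (-0.16 to 0.0066 over the fits that left out 1 mouse), Cyp3a41a (-0.27 to 0.033), Gclc (-0.0028 to 0.49, and -0.033 with probes summed and -0.20 after thinning), Plin4 (-0.44 to 0.13) and Nr1d1 (-0.94 to 0.22). The cause was not tested. Where a list had no call in 1 direction, at most 2 members passed an unadjusted p of 0.05 there by edgeR, and DESeq2 called at most 3 (oxidative phosphorylation subunits, decreased). A gene at 0 reads in a library could still be present there at up to 3 molecules at this depth.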

Other observations

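The unfolded protein and integrated stress response limits and clears misfolded protein in the endoplasmic reticulum. Of 26 genes tested, 1 was increased and 1 decreased by edgeR (3.85% each, against 5.59% and 3.75% of all genes), with a median log2 fold change of 0.06 against 0.11 over all genes. DESeq2 called 0 increased and 4 decreased, and 6 of the 15 that could be tested on thinned molecules were decreased. The decreased gene was Sdf2l1, a partner of the chaperone BiP, at 62.1, 82.6, 145, 83.4 and 188 CPM in the controls and 20.7, 24.2, 45.1, 67.7 and 53.1 CPM in the treated mice (log2 -1.41 ± 0.33, adjusted p = 0.00261), with 1 treated mouse inside the control range. Hspa5, the gene of BiP, was at 2622 ± 1096 CPM in controls and 1916 ± 639 CPM in treated mice (adjusted p = 0.266). The increased gene was Nupr1, a stress-induced nuclear protein, at 0 in every control and at 5.27, 3.15, 9.53, 0 and 10.8 CPM in the treated mice, 17 molecules in all (adjusted p = 0.0962), and this call was lost without mouse 101, 102, 103, 104, 105, 401, 402, 403 or 405 (adjusted p = 0.126 to 0.163).

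Clock genes, which keep daily rhythms in liver, gave 0 calls among 16 tested by edgeR, where 1 was higher and 1 lower at an unadjusted p below 0.05, and DESeq2 called 1 decreased. Their median log2 fold change was -0.05. Levels were low: Arntl, which activates the clock loop, was at 6.65 ± 2.44 and 8.78 ± 1.68 CPM, and Nr1d1, a repressor that peaks by day in mice, at 16.1 ± 8.11 and 15.6 ± 16.9 CPM (log2 0.40 ± 1.01 and -0.04 ± 0.90).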
